A study of Mus musculus with 18 samples.

Results

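The Nr4a orphan nuclear receptors and the genes of the cAMP-driven immediate early response were followed in the gracilis, a thigh muscle of mixed fibre type, of mice given clenbuterol, an agonist of the beta2-adrenergic receptor. The 10 genes were chosen by name (Nr4a1, Nr4a2, Nr4a3, Crem, Creb1, Crtc2, Sik1, Fos, Junb and Atf3), and every probeset that the platform annotation assigns to 1 of them was taken, which gave 27 of the 45037 probesets on the MOE430A and MOE430B chips. Nr4a2 and Creb1 had 6 probesets each, Crem had 4, Nr4a3 had 3, Crtc2 and Sik1 had 2 each, and Nr4a1, Fos, Junb and Atf3 had 1 each. Of these 27 probesets, 21 were bright enough to be tested, and the other 6 are described by their levels. A level is the signal of a probeset over the median of its array, so that a level of 1 is that of the median probeset, and levels are set side by side between pools of 1 probeset and never between probesets.

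All mice were C57BL/6J males, 3 to 5 wk old, and all received 10 daily intraperitoneal injections. The injections held only vehicle (ethanol in PEG200 and phosphate buffered saline) in C. In 24 h a single dose of clenbuterol, 1 mg/kg, came after 9 of vehicle, and in 10 D each of the 10 injections was clenbuterol at 1 mg/kg. Tissue was collected in every group 24 h after injection 10, so no pool shows the first hours after a dose. RNA of 3 mice was combined in equal amounts into a pool, with 3 pools per group, and each pool was hybridized to both chips. Animals had been picked to widen the contrast with C in weight gain and in urea nitrogen of the blood, and whole cages had been assigned to a treatment, so the p-values measure the spread between pools of selected animals.

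Array medians ran from 30.8 to 88.4 signal units on MOE430A and from 13.2 to 37.1 on MOE430B, and the ranges of the 3 groups overlapped. The 24 h and 10 D pools numbered 2 stood apart from the rest of their groups, and their deviations from the group means were alike, correlating over probesets, which are not independent replicates, at 0.558 on MOE430A and 0.16 on MOE430B. These pools also had the lowest array medians of their groups, 35.7 and 33.6 units on MOE430A and 13.2 and 14.9 on MOE430B. C pool 1 was lower on MOE430A, at 30.8, but not on MOE430B, at 17.5. A link between array median and deviation was not tested. The 9 defining genes of skeletal muscle fibres had a summed level of 1611 to 2458 in C, 1320 to 1828 in 24 h and 1171 to 1994 in 10 D pools, and 0 of them were called in any contrast. Of 47 markers of 10 other cell types 41 were tested, 0 were at a signal of 0 in any pool, and 2 were called at 24 h against C: S100a8, a calcium-binding protein of neutrophils, with a log2 change of 4.34 (SE 0.68, limma, adjusted p = 0.0439), and Myog, a regulator of muscle differentiation, with 2.06 (SE 0.34, adjusted p = 0.0531). S100a8 averaged a level of 0.145 in C and 2.30 at 24 h, so its change is measured from a level far below the median probeset. The other tested genes of the neutrophil and lymphocyte list were not called: S100a9, the partner of S100a8, had 1.22 (SE 1.23, adjusted p = 0.849) with overlapping groups, while for the leukocyte gene Ptprc (-0.99, SE 0.38) and the B cell gene Cd79a (-0.97, SE 0.29) all 24 h pools were below all C pools. The summed level of these 4 genes was 3.90 to 5.36 in C, 4.43 to 5.89 in 24 h and 3.33 to 6.68 in 10 D pools. In the satellite cell and regeneration list of 5 genes, Myog was the only call. At 24 h Myf5 had 1.04 (SE 0.48, limma, adjusted p = 0.604), with all 24 h pools above all C pools. Myod1 had -0.33 (SE 0.52), Myh3 -0.35 (SE 0.65) and Pax7 -0.096 (SE 0.45), all with overlapping groups. The list had a summed level of 5.118 to 6.958 in C, 11.29 to 13.41 in 24 h and 4.181 to 7.003 in 10 D pools. Myog alone averaged 2.068 in C and 8.582 at 24 h. The summed level of 6 macrophage markers was 17.5 to 23.2 in C, 20.5 to 29.2 in 24 h and 19.7 to 25.4 in 10 D pools. Among them Cd68 had 0.85 at 24 h (SE 0.27, adjusted p = 0.360), with all 24 h pools above all C pools, and the others overlapped. The summed level of 4 skin markers was 4.28 to 16.2 in C, 3.10 to 4.40 in 24 h and 3.39 to 8.25 in 10 D pools. Krt10 had -1.64 at 24 h (SE 0.46, adjusted p = 0.272), with all 24 h pools below all C pools, and the other skin markers overlapped. The part of these cells in the values below was not tested, and in RNA of whole muscle fewer cells of a type cannot be told apart from less RNA per cell.

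Binding of clenbuterol to its receptor activates adenylyl cyclase, and the cAMP that is formed releases protein kinase A, which phosphorylates CREB, the factor encoded by Creb1, on cAMP response elements of its target genes. Crtc2 is a coactivator that joins CREB there, and Sik1 is a kinase, itself a CREB target, that returns Crtc proteins to the cytoplasm. Crem encodes relatives of CREB, among them the inducible repressor ICER, while Fos, Junb and Atf3 encode leucine zipper factors and the Nr4a genes encode nuclear receptors with no known physiological ligand that are induced soon after many stimuli. In skeletal muscle, induction of Nr4a receptors by beta-adrenergic agonists is known for its link to genes of glucose and lipid use.

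The cAMP response element has the letters TGACGTCA, and its half-site TGACG, which CREB also binds, was searched on both strands in the 250 bases before the annotated start of each gene (RefSeq, GRCm38.p6). Promoters of Nr4a1, Nr4a2, Nr4a3, Creb1, Fos, Junb and Atf3 were matched, and those of the other members were not used here. The whole element was in 0 of these 7 promoters, against 1.55% of 32851 promoters of that length, and the half-site was in 6 of them, against 17.8% of all. In gene lists described below, the half-site was in 47.1% of 17 promoters of other immediate early genes and 44.4% of 9 of ATF4 and stress genes. It was in 41.7% of 12 for CREB cofactors, 37.5% of 8 for other receptor-linked genes and 20% of 10 for glucose use genes. G and C made up 58.4% to 80.0% of the 7 promoters, and the shares were not adjusted for this. Each of the Nr4a promoters held 4 half-sites, while 0.688% of all promoters held 3 or more. Fos held 2, Junb and Atf3 held 1 each, and Creb1 held 0. Other motifs searched the same way, the NBRE of Nr4a receptors (AAAGGTCA), the AP-1 site of Fos and Jun factors (TGANTCA) and the serum response element, had no match in the 7 promoters and were in 1.34%, 6.75% and 1.47% of all. A match is a description of the letters and not of binding. The 5 sequences below are shown because they belong to the receptors and to the immediate early genes that frame the results. Half-sites are in capitals, as TGACG on the printed strand or CGTCA where the half-site lies on the other. They lie at chr15:101266596-101266845 on the plus strand (Nr4a1), chr2:57124004-57124253 on the minus strand (Nr4a2), chr4:48045055-48045304 on the plus strand (Nr4a3), chr12:85473640-85473889 on the plus strand (Fos) and chr1:191183334-191183583 on the minus strand (Atf3).
Nr4a1: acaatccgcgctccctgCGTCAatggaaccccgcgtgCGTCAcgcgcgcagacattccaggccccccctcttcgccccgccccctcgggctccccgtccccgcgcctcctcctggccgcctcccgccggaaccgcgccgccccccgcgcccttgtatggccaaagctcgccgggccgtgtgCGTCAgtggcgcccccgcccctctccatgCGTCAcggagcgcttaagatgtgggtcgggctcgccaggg
Nr4a2: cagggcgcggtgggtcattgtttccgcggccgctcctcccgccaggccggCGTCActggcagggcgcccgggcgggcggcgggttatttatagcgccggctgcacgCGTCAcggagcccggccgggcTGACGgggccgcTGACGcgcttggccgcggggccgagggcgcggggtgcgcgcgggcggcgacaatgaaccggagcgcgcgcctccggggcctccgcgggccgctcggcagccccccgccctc
Nr4a3: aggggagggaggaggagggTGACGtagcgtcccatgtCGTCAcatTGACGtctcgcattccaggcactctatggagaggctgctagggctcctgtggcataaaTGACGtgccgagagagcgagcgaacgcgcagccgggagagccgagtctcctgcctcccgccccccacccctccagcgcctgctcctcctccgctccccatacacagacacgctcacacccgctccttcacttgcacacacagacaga
Fos: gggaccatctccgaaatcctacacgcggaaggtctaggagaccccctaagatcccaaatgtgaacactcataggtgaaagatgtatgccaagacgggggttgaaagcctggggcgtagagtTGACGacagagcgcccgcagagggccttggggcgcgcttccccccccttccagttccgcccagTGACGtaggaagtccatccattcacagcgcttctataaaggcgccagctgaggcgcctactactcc
Atf3: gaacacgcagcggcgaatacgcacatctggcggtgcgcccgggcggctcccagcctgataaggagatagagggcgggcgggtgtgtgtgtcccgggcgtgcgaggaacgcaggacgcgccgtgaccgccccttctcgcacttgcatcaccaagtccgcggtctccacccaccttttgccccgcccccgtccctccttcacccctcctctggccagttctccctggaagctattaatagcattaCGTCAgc

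At 24 h, 1 of the 21 tested probesets of these genes changed against C, a Crem probeset that rose 3.02-fold, and at 10 D none did. An adjusted p under 0.1 in limma was the threshold, which 0.456% of the 33752 tested probesets passed at 24 h against C. Before adjustment, 5 of the 21 had a p under 0.05 (Crem, Nr4a2, Nr4a3 and Atf3 with 1 higher probeset each and Nr4a1 with a lower one), beside 8.55% of all tested probesets. The Nr4a2 probeset among them was bright enough to be tested only through its treated pools, which favours a rise against C. The 24 h and C pools did not overlap in 4 of the 21, with 3 higher and 1 lower at 24 h, beside 16.8% of all. Of the 21 log2 changes at 24 h 13 were above 0 and 8 below, with a median of 0.22, where the median over all tested probesets was 0.020.

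At 10 D against C the count of calls was 0 of 21, as it was over all probesets (0% of 33752). Here 2 of the 21 had an unadjusted p under 0.05, Crem higher and Crtc2 lower, beside 4.56% of all, and the 10 D and C pools did not overlap in 3, all higher at 10 D, beside 10.3% of all. The median log2 change of the 21 at 10 D was -0.16, against 0.014 over all. Set directly against 24 h, the 10 D pools gave 0 calls among the 21, where 0.0504% of all were called. In that comparison 5 of the 21 had an unadjusted p under 0.05, of which 4 were lower at 10 D, beside 5.48% of all, and the groups did not overlap in 6, of which 5 were lower at 10 D, beside 9.27% of all. The median of the 21 differences between 10 D and 24 h was -0.28 on the log2 scale, beside -0.011 over all, and 17 of the 21 were below 0. The F test over the 3 groups called 0 of the 21, beside 0.216% of all, and 4 had an unadjusted p under 0.05, beside 6.62% of all. The contrasts of 24 h and 10 D with C share the C pools. An exact permutation test of 3 pools against 3 cannot give a two-sided p below 0.1, so single values were judged by the fit across all probesets.

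**Figure D1:**
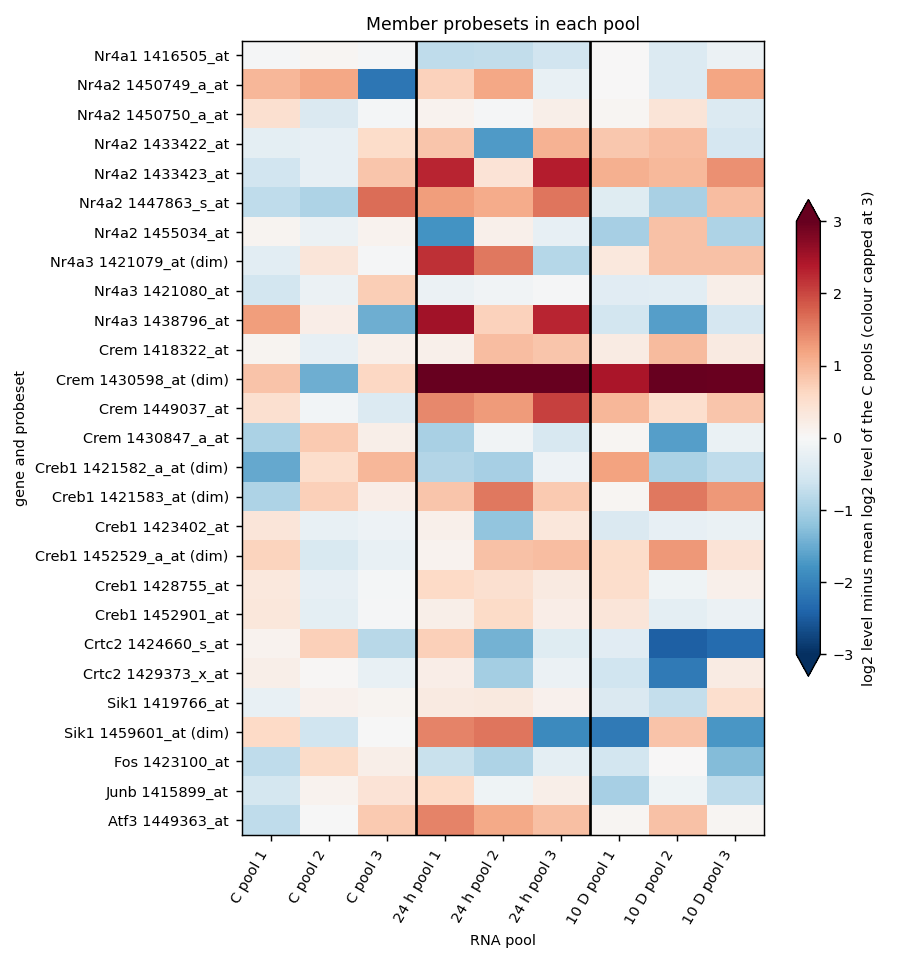
Log2 level of each of the 27 probesets (rows) in each of the 9 pools (columns), minus the mean log2 level of the C pools of that probeset, with colour capped at 3 and probesets too dim to be tested marked. Crem 1449037_at is above its C mean in all 6 treated pools, Nr4a1 1416505_at is below it in the 3 pools of 24 h, and several Nr4a2, Creb1 and Crtc2 rows differ between pools of 1 group as much as between groups.

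Crem, the gene of the CREB-related activators and of the ICER repressor, gave the single call. On probeset 1449037_at its level was 1.53, 1.03 and 0.827 in the C pools, 2.96, 2.65 and 4.54 in the 24 h pools and 2.17, 1.54 and 1.95 in the 10 D pools. Every 24 h pool lay above every C pool, and every 10 D pool above every C pool though the lowest of them, 10 D pool 2, exceeded the highest C pool by little. The level averaged 3.38 ± 1.01 at 24 h and 1.13 ± 0.360 in C (SD, n = 3), a log2 change of 1.59 (SE 0.30, limma, adjusted p = 0.0861). At 10 D it averaged 1.89 ± 0.321, and the log2 change against C was 0.78 (SE 0.30, adjusted p = 0.9997), about midway on the log2 scale. The 10 D level differed from the 24 h level by -0.82 on the log2 scale (SE 0.30, adjusted p = 0.804), with all 10 D pools below all 24 h pools.

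The Crem call at 24 h was close to the threshold. It was lost when any 1 C pool, any 1 24 h pool or 10 D pool 3 was left out, with an adjusted p of 0.136 to 0.335 and a log2 change of 1.36 to 1.83, and it held without 10 D pool 1 (adjusted p = 0.0904) or 10 D pool 2 (adjusted p = 0.0532). It was lost in limma as well with 16 units added to each signal (adjusted p = 0.111), with no filter on dim probesets (0.112), without the intensity trend (0.159) and with unmoderated variances (0.211). Without both treated pools numbered 2 the change was 1.75 with an adjusted p of 0.0351, and the F test then called this probeset too (adjusted p = 0.0861).

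The other Crem probesets differed among themselves. On 1418322_at the level was 0.844, 0.674 and 0.890 in C, 0.892, 1.50 and 1.41 in 24 h and 0.940, 1.54 and 0.957 in 10 D pools. Both treated groups lay above C with no overlap, yet 24 h pool 1 exceeded the highest C pool by a margin far below the spread within a group, and the log2 changes of 0.63 (SE 0.31) at 24 h and 0.48 (SE 0.31) at 10 D did not pass the test in limma (adjusted p = 0.624 and 0.9997). On 1430598_at, which was too dim to be tested, the signal was 1.2, 0.5 and 1.4 units in the C pools, 11.6, 10.8 and 9.8 units in the 24 h pools and 10.4, 11.7 and 7.8 units in the 10 D pools. All 6 treated pools were above all C pools there, and with the filter lifted the log2 changes were 3.37 (SE 0.72, adjusted p = 0.157) for 24 h and 3.15 (SE 0.72, adjusted p = 0.967) for 10 D, on signals near the bottom of the chip. On 1430847_a_at the groups overlapped, with log2 changes of -0.52 (SE 0.63) at 24 h and -0.60 (SE 0.63) at 10 D. Across the 9 pools the log2 levels of 1449037_at and 1418322_at had a Pearson correlation of 0.537, and those of 1449037_at and 1430847_a_at of -0.312. The files do not tell which Crem transcripts each probeset reads.

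**Figure D2:**
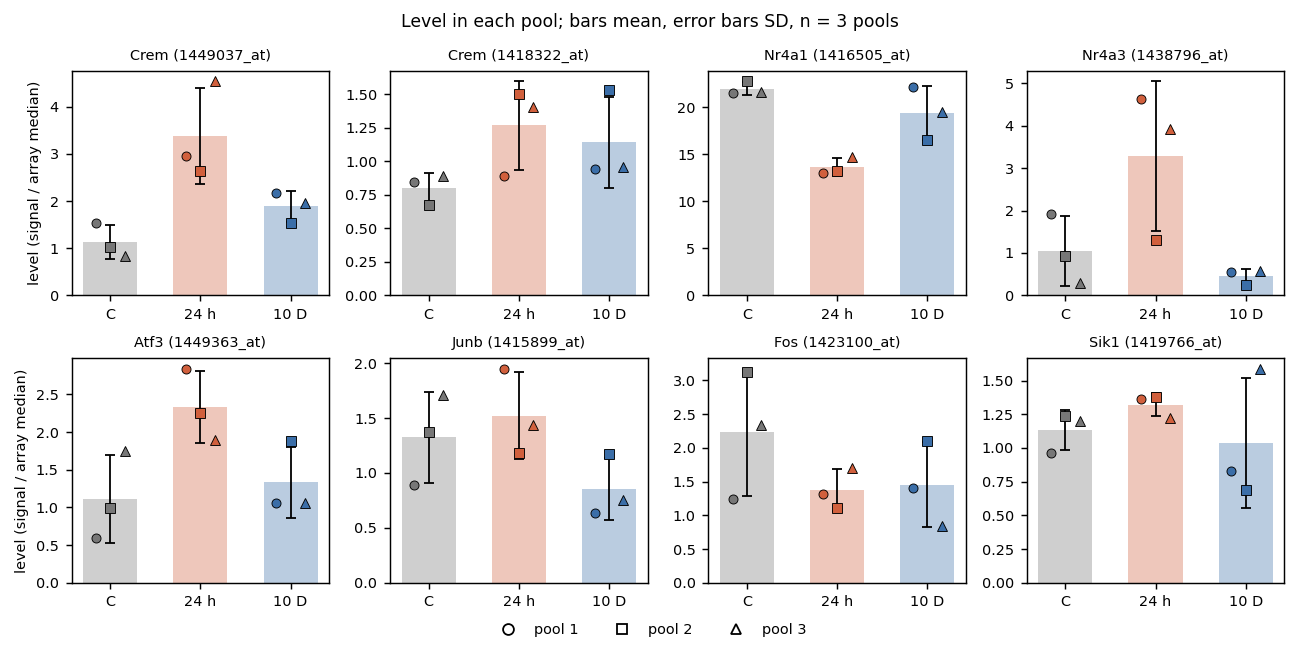
Level (signal divided by array median, linear axis from 0) of 8 probesets in the C, 24 h and 10 D pools, with bars for the mean, error bars for the SD and 1 symbol per pool (n = 3 pools per group). The 24 h pools stand above C for Crem 1449037_at and Atf3 and below C for Nr4a1, while Fos, Junb and Sik1 overlap.

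Nr4a1, the orphan receptor also called Nur77, was read by 1 probeset, 1416505_at, and at 24 h it differed from C in the direction opposite to Crem. The level was 21.5, 22.8 and 21.6 in the C pools, 13.0, 13.2 and 14.7 in the 24 h pools and 22.2, 16.5 and 19.5 in the 10 D pools. All 24 h pools lay below all C and all 10 D pools, and of the 10 D pools, pool 1 lay among the C pools and the others below them. The mean of 13.6 ± 0.942 at 24 h against 22.0 ± 0.688 in C (SD, n = 3) was a log2 change of -0.69 (SE 0.19), which did not pass the test in limma (adjusted p = 0.259). In the 19 alternative settings this change stayed below 0 and its adjusted p ran from 0.123 to 0.648. The paper, by contrast, lists this probeset as differentially expressed at a false discovery rate of 10%, and lower than C in both treated groups. The paper's filter and test differ from those used here, and the reason for the different outcome was not tested. At 10 D, with a mean of 19.4 ± 2.83, the log2 change against C was -0.19 (SE 0.19, adjusted p = 0.9997), and the level was higher than at 24 h by 0.50 on the log2 scale (SE 0.19, adjusted p = 0.815).

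Nr4a3, the receptor also called NOR-1, had its largest differences on 1438796_at. The level there was 1.92, 0.92 and 0.292 in C, 4.63, 1.30 and 3.92 in 24 h and 0.544, 0.255 and 0.567 in 10 D pools. Pools 1 and 3 of 24 h were above all others, while 24 h pool 2 lay within the C range, and the C pools themselves spanned the widest range of any group on a log scale. The log2 change at 24 h against C was 1.84 (SE 0.70, limma, adjusted p = 0.476), and that at 10 D was -0.90 (SE 0.70, adjusted p = 0.9997). Between the treated groups the difference was larger: all 10 D pools were below all 24 h pools, by -2.74 on the log2 scale (SE 0.70, adjusted p = 0.412). The change at 24 h ran from 1.11 without C pool 3 to 2.47 without C pool 1, with an adjusted p of 0.345 to 0.770 over the fits that left out 1 pool, and was 1.13 with 16 units added (adjusted p = 0.416) and 2.41 without both treated pools numbered 2 (adjusted p = 0.158). The difference of 10 D from 24 h was -2.94 without both of those pools (adjusted p = 0.209). The second tested Nr4a3 probeset, 1421080_at, showed no such pattern, with levels of 0.305 to 0.750 in C, 0.399 to 0.438 in 24 h and 0.357 to 0.509 in 10 D pools and log2 changes of -0.11 and -0.16 (SE 0.44 each) at 24 h and 10 D. The log2 levels of these 2 probesets had a correlation of -0.348 across the 9 pools. The third, 1421079_at, was too dim to be tested and had a level of 0.0587 to 0.481 over all pools.

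Nr4a2, the receptor also called Nurr1, was read by 6 probesets, all tested, that did not move together. On 1433423_at the level was 0.189, 0.236 and 0.497 in C, 1.37, 0.371 and 1.43 in 24 h and 0.588, 0.550 and 0.723 in 10 D pools. As with Nr4a3, 24 h pool 2 lay in the C range while 24 h pools 1 and 3 lay above it, and all 10 D pools were above all C pools. The log2 changes were 1.68 (SE 0.64, limma, adjusted p = 0.476) for 24 h and 1.13 (SE 0.64, adjusted p = 0.9997) for 10 D. Its C signals were 3.3, 5.9 and 9.7 units, where the filter on the mean log2 signal of the 9 pools stood at 6.97 units. The brighter treated pools carried this probeset past the filter, so its rises against C are favoured by how it was selected. The change at 24 h ran from 1.35 without 24 h pool 3 to 2.32 without 24 h pool 2, with an adjusted p of 0.235 to 0.871 over the fits that left out 1 pool, and was 0.75 with 16 units added (adjusted p = 0.408) and 2.32 without both treated pools numbered 2 (adjusted p = 0.126). On 1447863_s_at, a type of probeset that can share probes with other transcripts, the level was 0.594, 0.532 and 3.20 in C, 2.38, 2.17 and 3.08 in 24 h and 0.784, 0.510 and 1.90 in 10 D pools. C pool 3 was the highest of all 9 there, the log2 change at 24 h was 1.33 (SE 0.66, adjusted p = 0.629), and all 10 D pools were below all 24 h pools, by -1.46 (SE 0.66, adjusted p = 0.911). On the remaining 4 Nr4a2 probesets every contrast had overlapping groups, with log2 changes of -0.62 to 0.54 at 24 h and -0.35 to 0.41 at 10 D. Correlations of log2 level between the Nr4a2 probesets ran from -0.586 to 0.636 over the 9 pools, the highest being that of 1433423_at with 1447863_s_at.

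**Figure D3:**
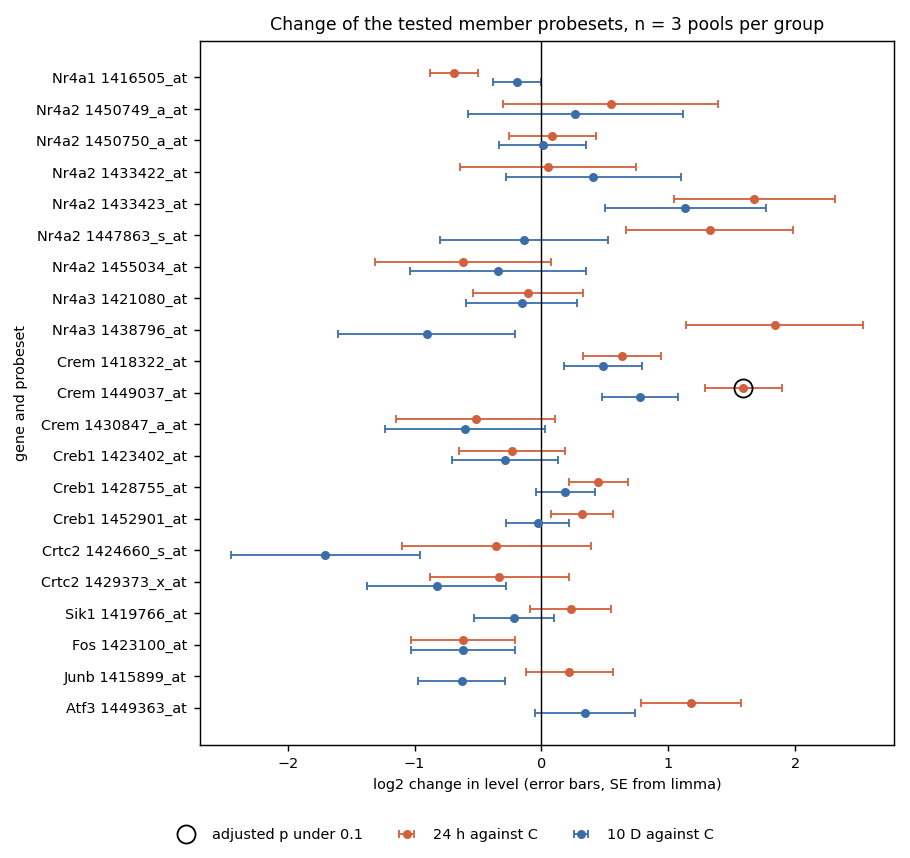
Log2 change in level of the 21 tested probesets at 24 h and at 10 D against C (points, with the standard error from limma, n = 3 pools per group), with the single call under an adjusted p of 0.1 ringed. At 24 h the points run from -0.69 for Nr4a1 to 1.84 for Nr4a3 1438796_at, and the ringed point is Crem 1449037_at at 1.59.

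Atf3, a leucine zipper repressor induced by cAMP and by stress, had a level of 0.597, 0.998 and 1.75 in C, 2.84, 2.25 and 1.90 in 24 h and 1.06, 1.88 and 1.06 in 10 D pools. Every 24 h pool was above every C pool and every 10 D pool, though C pool 3 and 10 D pool 2 came close to 24 h pool 3. The log2 change at 24 h was 1.18 (SE 0.40), 2.27-fold, and did not pass the test in limma (adjusted p = 0.400). At 10 D it was 0.34 (SE 0.40, adjusted p = 0.9997), and the 10 D level differed from that at 24 h by -0.84 (SE 0.40, adjusted p = 0.941).

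Junb and Fos, whose products pair in AP-1, did not pass the test in either direction. Junb was at 0.893, 1.37 and 1.71 in C, 1.95, 1.18 and 1.44 in 24 h and 0.638, 1.17 and 0.758 in 10 D pools. The 24 h and C pools overlapped (log2 change 0.22, SE 0.34, limma, adjusted p = 0.908), and all 10 D pools were below all 24 h pools, by -0.85 (SE 0.34, adjusted p = 0.857), although 10 D pool 2 and 24 h pool 2 nearly coincided. Fos was at 1.24, 3.12 and 2.33 in C, 1.31, 1.10 and 1.71 in 24 h and 1.41, 2.11 and 0.843 in 10 D pools. Of the 6 treated pools of Fos 4 lay within the range of its C pools, and its log2 changes were -0.62 (SE 0.41) at 24 h and -0.61 (SE 0.41) at 10 D, with adjusted p-values of 0.735 and 0.9997.

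Among the regulators of CREB, Sik1 on 1419766_at had levels of 0.961, 1.24 and 1.20 in C, 1.37, 1.38 and 1.22 in 24 h and 0.829, 0.690 and 1.59 in 10 D pools. The 10 D pools of Sik1 enclosed all the others, and its log2 changes were 0.23 at 24 h and -0.22 at 10 D (SE 0.32 each). Its other probeset, 1459601_at, was too dim to be tested, with levels of 0.0485 to 0.644. Crtc2 had levels on 1424660_s_at of 0.643, 0.987 and 0.339 in C, 0.982, 0.224 and 0.466 in 24 h and 0.471, 0.110 and 0.120 in 10 D pools. Pools 2 and 3 of 10 D were the lowest of the 9, 10 D pool 1 lay within the C range, and the log2 change at 10 D of -1.70 (SE 0.74) did not pass the test in limma (adjusted p = 0.9997). On the other Crtc2 probeset, 1429373_x_at, 10 D pool 2 was lowest at 0.362 and the other 8 pools lay between 0.780 and 1.87. Its log2 change at 10 D was -0.82 (SE 0.55), and -0.17 without both treated pools numbered 2. Both Crtc2 probesets are of types that can read similar sequence elsewhere.

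Creb1 itself, the factor at the centre of the pathway, had 6 probesets, of which 3 were tested. On 1428755_at the level was 6.16, 4.21 and 4.74 in C, 7.55, 6.94 and 5.94 in 24 h and 7.21, 4.56 and 5.52 in 10 D pools. C pool 1 reached into the 24 h range, and the log2 changes were 0.45 (SE 0.23, limma, adjusted p = 0.647) for 24 h and 0.19 (SE 0.23, adjusted p = 0.9997) for 10 D. On 1452901_at, which followed it across the 9 pools with a correlation of 0.845, the log2 changes were 0.32 (SE 0.25) and -0.03 (SE 0.25) at 24 h and 10 D, with overlapping groups. The third tested probeset, 1423402_at, had log2 changes of -0.24 and -0.29 (SE 0.42 each) at 24 h and 10 D. The other 3 Creb1 probesets were too dim to be tested, with levels of 0.0617 to 0.458. On 1 of them, 1421583_at, the 24 h pools (0.202 to 0.353) were above the C pools (0.0617 to 0.194) by a small margin, and with the filter lifted the log2 change was 1.07 (SE 0.61, limma, adjusted p = 0.734).

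The genes whose log2 level followed that of Nr4a1 most closely over the 9 pools were Akap6, an anchor of protein kinase A, with a Pearson correlation of 0.987, Pitpnc1 (0.975), Dhrs7 (0.973), Asb10 (0.972) and Acbd5 (0.970). The levels of Akap6 averaged 5.08 at 24 h and 16.8 in C, a log2 change of -1.75 that was called (limma, adjusted p = 0.0590), and those of Asb10, a muscle subunit of ubiquitin ligases, averaged 4.48 at 24 h and 17.0 in C, a log2 change of -1.93 that was called as well (adjusted p = 0.0324). Pitpnc1 was called with -1.48 (adjusted p = 0.0679), while Dhrs7 with -0.79 (adjusted p = 0.193) and Acbd5 with -2.22 (adjusted p = 0.145) were not. For Crem 1449037_at the nearest were Dnajc7 (0.970), 6430548M08Rik (0.970), Ccdc50 (0.966), Shmt1 (0.949) and Osgin2 (0.943). Of these, 6430548M08Rik was called at 24 h, averaging 5.12 at 24 h and 1.70 in C, with a log2 change of 1.58 (adjusted p = 0.0679). These 10 were picked as the highest correlations over all tested probesets with 1 symbol, so they describe the pools and carry no test.

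Genes of the same pathways were read through the brightest tested probeset of each gene, of which 0.672% of 15184 were called at 24 h and 0% at 10 D. The lists were drawn up with earlier results of these data known. Among 12 tested cofactors and kinases of CREB and related factors 0 were called by limma, and at an unadjusted p under 0.05 there were 0 at 24 h and 1, Crebbp, at 10 D. Crebbp, the acetyltransferase CBP that phosphorylated CREB recruits, averaged 9.77 at 24 h and 14.5 in C, a log2 change of -0.57 (SE 0.39), and -0.86 (SE 0.39) at 10 D. Its relative Ep300 had log2 changes of -0.08 and -0.59 (SE 0.36 each) at 24 h and 10 D, the coactivator Crtc1 had 0.31 and 0.29 (SE 0.22 each) and the histone deacetylase Hdac5 had -0.35 and -0.16 (SE 0.23 each). The median of these 12 was -0.087 at 24 h and -0.092 at 10 D, beside 0.037 and 0.025 over all genes.

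Of 26 other immediate early genes 23 were tested and 0 were called in any contrast, with a median log2 change of -0.0042 at 24 h and -0.14 at 10 D. At 24 h 2 were higher and 2 lower at an unadjusted p under 0.05. Klf2, a Krüppel-like factor, averaged 2.56 at 24 h and 5.05 in C (log2 change -1.05, SE 0.32, limma, adjusted p = 0.323), with all 24 h pools below all C pools. Zfp36, which destabilizes AU-rich messenger RNA, averaged 1.56 at 24 h and 2.55 in C (log2 change -0.83, SE 0.32, adjusted p = 0.489), and Jun, the partner of Fos, averaged 8.17 at 24 h and 5.84 in C (log2 change 0.48, SE 0.19, adjusted p = 0.507). Cebpd, a leucine zipper factor, averaged 5.84 at 10 D and 2.25 at 24 h, a log2 difference of 1.36 (SE 0.49, adjusted p = 0.776) with overlapping groups.

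Among 10 partners of Atf3 in the ATF4 and stress responses 0 were called by limma, and at 24 h 1 was higher and 2 were lower at an unadjusted p under 0.05. Atf4 itself averaged 48.5 at 24 h and 28.2 in C (log2 change 0.78, SE 0.23, limma, adjusted p = 0.313), and all 24 h pools were above all C and all 10 D pools. Chac1, an enzyme of glutathione breakdown and an ATF4 target, lay the other way: it averaged 1.15 at 24 h and 8.04 in C (log2 change -2.86, SE 0.61, adjusted p = 0.123), with no overlap. Gadd45b, a stress-induced regulator of growth arrest, averaged 2.79 at 24 h and 5.88 in C (log2 change -1.13, SE 0.28, adjusted p = 0.213), and Trib3, a pseudokinase, had 0.13 at 24 h and 0.80 at 10 D (SE 0.34 each).

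Genes of glucose use in muscle, which Nr4a receptors are known to regulate, held 1 call in 11. Fbp2, the muscle fructose bisphosphatase, averaged 27.0 at 24 h and 6.63 in C, a log2 change of 2.04 (SE 0.24, limma, adjusted p = 0.0118), and its change at 10 D was 1.17 (SE 0.24, adjusted p = 0.552). Of the other 10 all had log2 changes below 0 at 24 h, none called, among them the glycogen synthase Gys1 with -0.97 (SE 0.31, adjusted p = 0.354) and the phosphorylase kinase subunits Phkg1 with -0.96 (SE 0.26, adjusted p = 0.258) and Phka1 with -0.04 (SE 0.20). The median of the 11 was -0.21 at 24 h and 0.029 at 10 D. All 9 markers of skeletal muscle fibres were below 0 at 24 h as well, with a median of -0.27. The same held for all 5 fibroblast markers, with a median of -0.335. The direction was thus not particular to the genes of glucose use. Of 9 further genes linked to the receptor or to Nr4a 7 were tested and 0 were called by limma, with 2 lower at 24 h at an unadjusted p under 0.05. These were the retinoid X receptors, with which Nr4a1 and Nr4a2 can pair, with log2 changes at 24 h of -0.91 for Rxra (SE 0.32, adjusted p = 0.420) and -0.56 for Rxrg (SE 0.25, adjusted p = 0.571), and for both all 24 h pools were below all C pools. Ucp3, a mitochondrial carrier, had -0.49 at 24 h (SE 0.33), and the clock gene Per1, itself a CREB target, had 0.15 (SE 0.30).

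**Figure D4:**
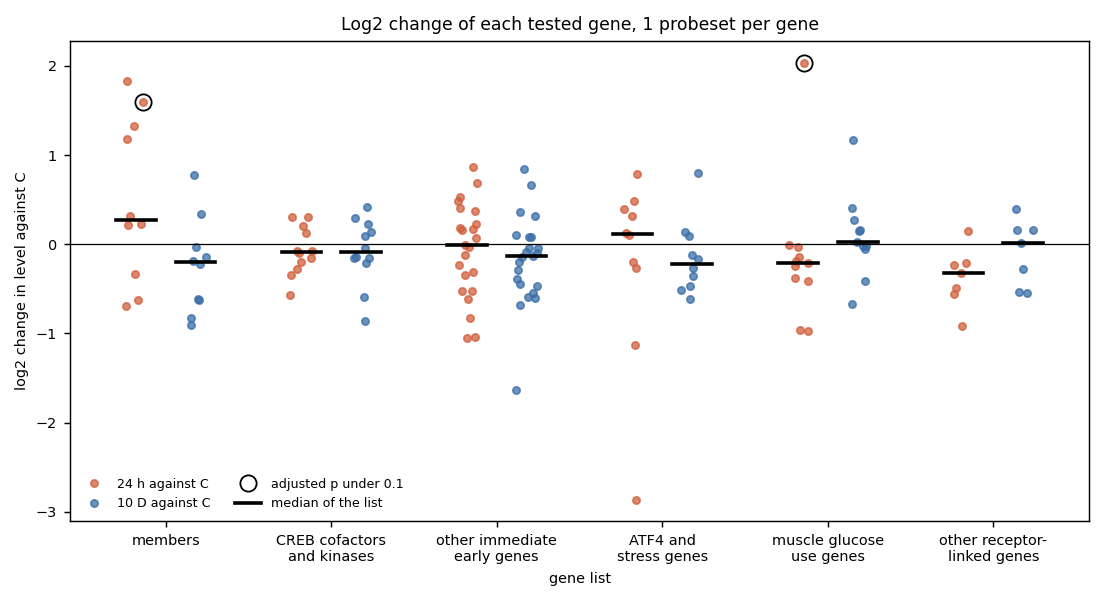
Log2 change of each tested gene against C at 24 h and at 10 D, 1 probeset per gene, by gene list (points, jittered sideways), with the median of each list as a bar and genes with an adjusted p under 0.1 ringed. The 2 ringed points are Crem among the members and Fbp2 among the glucose use genes, both at 24 h.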

How the data were processed

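RNA of 9 pools was hybridized to Affymetrix MOE430A and MOE430B arrays, 18 in all. The deposited values were linear probeset intensities that the authors obtained with MAS 5.0, whose settings are not given in the sources used here. As array medians ran from 30.8 to 88.4 on MOE430A, the values were taken as not scaled between arrays. Unlabelled arrays were treated as MOE430A, whose probesets their table holds. The number of arrays limits the precision.

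Signals were divided by the array median in R 4.3.3, zeros (18 values) were replaced by 0.05 and log2 was taken, followed by limma 3.58.1. For 100 probesets on both chips the MOE430A copy was kept. Platform symbols were brought up to date with the GRCm38.p6 gene table: 34945 probesets had 1 symbol, 932 several and 9160 none listed. Probesets with a mean log2 signal at or above the 25th percentile of the chip (14.1 and 6.97 units) were tested, 16969 and 16783. A model with 3 groups was fitted per chip (lmFit, eBayes with trend, 6 residual degrees of freedom) and p-values, two-sided, were adjusted over both chips (Benjamini-Hochberg), with calls under 0.1. An unmoderated ANOVA like that of the methods was tried, but on the filter used here and not on the authors' filter by absent calls. Other scalings, filters and the replicate number as a block were tried as well, and each pool was left out in turn. Scripts were tested on simulated data.

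All probesets of the members are described. From each pathway list the genes called and up to 4 with the smallest F test p are named, and for Nr4a1 and Crem the 5 genes most alike. Members and lists were chosen with earlier results of these data known.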

Additional observations from a re-analysis of the deposited data

How the results depend on the processing

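Over 19 alternative settings the 63 log2 changes of the tested probesets gave 1173 values. Of these 61 changed sign, none of them of a call or of a value with an unadjusted p under 0.05, and 11 lost a call, all of them the Crem change at 24 h. Probesets that fell below the stricter filter gave no value there. The count of member probesets called at 24 h against C was 1 and became 0 with 16 units added, without the filter, without the intensity trend and in the unmoderated ANOVA, and ranged from 0 to 1 when 1 pool was left out. The F test called 0 members, and 1, Crem, without both treated pools numbered 2, an alternative chosen after seeing the data. The 10 D contrasts called 0 members in every setting.

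Over all probesets the calls at 24 h against C, 154 in the reported fit, were 52 without the trend, 100 in the ANOVA, 24 to 432 with 1 pool left out and 599 without both treated pools numbered 2. For 10 D against C the count was 0, with 1540 at an unadjusted p under 0.05, and became 2 with the median of bright probesets, 2 with adjustment within each chip, 0 to 1 with 1 pool left out and 5 without both pools numbered 2. For 10 D against 24 h the count was 17, and was 43 after quantile normalization, 5 without the trend, 1 to 76 with 1 pool left out and 110 without both pools. The F test called 73, and 40 with 16 units added, 24 without the trend, 31 in the ANOVA, 7 to 243 with 1 pool left out and 347 without both pools. The higher and lower calls at 24 h, 111 and 43, were 117 and 99 after quantile normalization and 81 and 22 with 16 units added. No cause was tested.

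Same-numbered C and treated pools did not deviate together (correlations of -0.072 to 0.046 on MOE430A). Same-numbered 24 h and 10 D pools correlated at 0.388, 0.558 and 0.102 on MOE430A and at 0.114, 0.16 and 0.0077 on MOE430B. As this did not hold for the C pools, nor for every pair on MOE430B, the numbers were not taken to pair pools. With the replicate block 1 member was called at 24 h against C (Crem, adjusted p = 0.087 in limma) and over all probesets 209 were called there, 3 at 10 D against C and 17 at 10 D against 24 h. Signals near the bottom of a chip limit the dim Crem, Creb1, Nr4a3 and Sik1 probesets. They limit some tested probesets too. Crtc2 1424660_s_at was at 3.7 and 5.6 units in 10 D pools 2 and 3, beside a filter of 14.1. Against a filter of 6.97, Nr4a2 1433423_at was at 3.3 to 9.7 units in C. Nr4a3 1438796_at, on the same chip, was at 5.7 units in C pool 3 and 3.8 in 10 D pool 2.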
